A study of Mus musculus with 6 samples.

Results

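The interferon-stimulated genes are the transcripts that a cell switches on when interferon reaches its receptors, and 35 of them were followed here in lymph nodes of Rag2/pfp knockout mice and of wild-type mice. They were found by the gene symbol that the array's annotation gives each probe. The array carried 51 probes for 34 of the 35 genes, and Ifi44 was not analysed here. Of the 34 genes, 28 had a probe detected on at least 3 of the 6 arrays and were tested, among 9973 genes tested of 16593 with a probe. By role, the tested genes were 17 of 20 antiviral effectors, 5 of 7 nucleic acid sensors and double-stranded RNA binding enzymes, all 3 STAT and IRF factors, and 3 of 5 modifiers of the response.

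Total RNA of whole lymph nodes was measured on Illumina Mouse Ref-8 v2 arrays, 3 for each genotype. The knockout mice lack Rag2, a recombinase subunit needed to build antigen receptors, and perforin (pfp, gene symbol Prf1), with which killer lymphocytes open pores in their targets. The wild-type mice carry both genes. No treatment is named for either group. The sources used here give no strain, age or site of the nodes and do not say that the 3 replicates were separate animals, so a p-value reflects only how far these arrays spread. In such mice no mature B or T cells form, while myeloid cells, stroma and natural killer cells without perforin can remain.

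Type I interferons bind a receptor shared by all of them, whose kinases Jak1 and Tyk2 phosphorylate STAT proteins, among them Stat2. Stat2 joins Irf9 in a complex that binds a short repeated element, the interferon-stimulated response element, in the promoters of its target genes. Interferon gamma uses another receptor, which also signals through STAT proteins. In lymph nodes, macrophages, dendritic cells and lymphocytes respond to interferons, and part of the response runs at a low level without infection.

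The response element was visible in many of these promoters. Its core was searched as GAAANNGAAA on both strands, which on the opposite strand reads TTTCNNTTTC, and overlapping matches were counted. In the RefSeq promoter table of build GRCm38.p6, which holds 250 bases before and 50 bases after each start of transcription, 13 of the 24 genes with an entry had a match (54.2%), against 1079 of 27025 genes in the whole table (3.99%). The 11 genes with no entry were Mx1, Mx2, Oas2, Ifi27, Rtp4, Dhx58, Zbp1, Ifi204, Usp18, Parp9 and Parp14. The promoters of Isg15 and Gbp2, which read higher in the knockout without passing the test, and of Trim30a and Ddx58, which were lower, are shown first because all 4 hold the element although their transcripts differed in direction. Each runs 5′ to 3′ on the strand of its gene and ends 30 bases after the start, and capitals mark every match. Isg15 lies at chr4:156200789-156201068 (minus strand), Gbp2 at chr3:142620413-142620692 (plus strand), Trim30a at chr7:104465164-104465443 (minus strand) and Ddx58 at chr4:40239796-40240075 (minus strand).
Isg15: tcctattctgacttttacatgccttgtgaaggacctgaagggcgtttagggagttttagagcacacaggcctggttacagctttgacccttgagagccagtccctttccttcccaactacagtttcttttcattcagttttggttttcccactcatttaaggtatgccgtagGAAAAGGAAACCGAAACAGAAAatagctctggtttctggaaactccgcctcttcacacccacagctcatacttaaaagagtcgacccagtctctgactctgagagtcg
Gbp2: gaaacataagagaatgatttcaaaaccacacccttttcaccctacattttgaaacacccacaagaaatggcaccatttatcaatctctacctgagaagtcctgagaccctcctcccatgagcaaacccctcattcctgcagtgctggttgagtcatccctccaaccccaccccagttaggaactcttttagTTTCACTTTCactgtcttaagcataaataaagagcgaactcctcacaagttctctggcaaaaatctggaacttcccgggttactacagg
Trim30a: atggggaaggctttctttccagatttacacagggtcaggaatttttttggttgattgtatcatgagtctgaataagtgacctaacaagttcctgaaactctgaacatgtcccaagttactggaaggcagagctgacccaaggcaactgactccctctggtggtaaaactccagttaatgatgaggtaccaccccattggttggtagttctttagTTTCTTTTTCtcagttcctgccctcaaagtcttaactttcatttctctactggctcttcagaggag
Ddx58: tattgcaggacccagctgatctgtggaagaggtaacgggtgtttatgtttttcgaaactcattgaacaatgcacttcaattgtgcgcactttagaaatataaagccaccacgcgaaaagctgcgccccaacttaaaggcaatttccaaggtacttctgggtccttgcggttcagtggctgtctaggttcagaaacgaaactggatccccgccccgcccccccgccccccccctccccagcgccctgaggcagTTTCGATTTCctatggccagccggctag
Isg15 has 3 overlapping matches, the others 1 each. The match of Ddx58 begins 2 bases after the start, and that of Trim30a lies 36 bases before it. Trim30a has a second annotated start with the same matched letters.

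Shorter windows of 60 bases show the element in 6 further genes with matches, again with capitals on the matches. They come from Ifit3 at chr19:34583348-34583407 (plus strand), Rsad2 at chr12:26456538-26456597 (minus strand), Oas3 at chr5:120777700-120777759 (minus strand), Gbp3 at chr3:142559974-142560033 (plus strand), Stat2 at chr10:128270251-128270310 (plus strand) and Eif2ak2 at chr17:78882543-78882602 (minus strand).
Ifit3: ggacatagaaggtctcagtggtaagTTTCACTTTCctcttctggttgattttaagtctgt
Rsad2: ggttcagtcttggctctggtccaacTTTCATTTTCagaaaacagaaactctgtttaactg
Oas3: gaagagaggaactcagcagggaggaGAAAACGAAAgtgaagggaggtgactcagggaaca
Gbp3: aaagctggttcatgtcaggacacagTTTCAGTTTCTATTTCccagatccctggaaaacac
Stat2: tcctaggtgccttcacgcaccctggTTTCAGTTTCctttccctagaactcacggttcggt
Eif2ak2: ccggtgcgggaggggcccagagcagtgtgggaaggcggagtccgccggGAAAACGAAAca
The matched letters did not sort the genes by direction. The 10 tested genes with a match had log2 fold changes from -1.71 to 0.99 with a median of 0.10, and 2 of them passed the test as lower. The 9 tested genes with an entry and no match ran from -1.13 to 0.74 with a median of -0.15, and 1 was lower. A match is a description of these letters and not a measured binding site.

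Taken gene by gene, 3 of the 28 genes were lower in the knockout nodes and 0 were higher. The 3 were Trim30a, Ddx58 and Adar, with log2 fold changes of -1.71, -1.54 and -1.13. All values here are normalized log2 intensities, a gene is represented by its brightest tested probe, each difference is knockout minus wild type, and a gene was called where the limma p, adjusted by Benjamini-Hochberg over all 14378 tested probes, was under 0.05. Over all genes tested, 17.3% were called lower, 10.2% higher and 27.5% in either direction, so the share called among the interferon-stimulated genes (10.7%) lay below that of the array. At an unadjusted p under 0.05, 3 were higher (Ifi27, Gbp2 and Irf7), against 19.4% of all genes. At that threshold 7 were lower (Cmpk2, Oas3, Oasl2, Trim30a, Ddx58, Adar and Irf9), against 23.8%. Of these 7, Oas3 was detected on wild-type arrays only, so it was tested through the group where it read higher. This holds wherever Oas3 is counted below. The median log2 fold change of the 28 genes was 0.20, with quartiles at -0.36 and 0.44, beside 0.03 over all genes, whose quartiles were -0.50 and 0.55. In whole tissue, fewer cells that carry a transcript and less of it per cell cannot be told apart.

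The tissue itself differed greatly between the groups. All 5 tested B cell markers and all 5 tested T cell markers were lower in the knockout. Sums in this paragraph are of normalized intensities on the linear scale, not of the deposited intensities. The summed intensity of the B cell markers was 898 to 1281 in the knockout and 33881 to 50324 in wild type, and on the knockout arrays Cd79a, Ms4a1 and Fcmr did not rise above background. The T cell markers summed to 415 to 1191 and 18857 to 24795. Macrophage and monocyte markers summed to 42232 to 52491 in the knockout and 13741 to 38356 in wild type, with 4 of 8 higher, and dendritic cell markers to 10020 to 17991 and 3040 to 5276, with 3 of 5 higher and Flt3 not above background on any array. Of 5 tested plasmacytoid dendritic cell markers, a cell type known for abundant interferon production, 1 was lower, with sums of 8154 to 10788 and 10569 to 17384, and Ccr9 was not above background on any array. Exocrine gland transcripts were bright on every knockout array and on wild-type array 2: 15 of 16 markers were tested and summed to 300910 to 656488 in the knockout, to 361557 on wild-type array 2, and to 1171 and 1090 on wild-type arrays 1 and 3. Lymph node stroma markers, with 2 of 5 lower, summed to 41127 to 70577 in the knockout and 62182 to 98929 in wild type. The part of these cell types in the results below was not tested. Rag2 was not above background on any array, and the 2 Prf1 probes gave log2 fold changes of 0.35 and -0.14, neither called, so these probes do not check the genotype.

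The antiviral effectors held both the most positive and the most negative log2 fold change of the set. Trim30a, a tripartite-motif protein known in mouse to restrain Toll-like receptor signalling, had intensities of 946.5, 556.7 and 819.5 on knockout arrays 1 to 3 and of 3593, 1715 and 3396 on wild-type arrays 1 to 3. On the log2 scale it read 9.80, 9.23 and 9.61 against 11.68, 10.58 and 11.52. Every knockout array lay below every wild-type array, and wild-type array 2 was the lowest of its group. The means of 9.55 ± 0.29 and 11.26 ± 0.60 (SD, n = 3 each) differed by -1.71 (SE 0.33), 3.28-fold, with a limma adjusted p of 0.014. The call held with 3 of the 6 arrays left out in turn, knockout array 1, wild-type array 1 or wild-type array 2, and was otherwise lost narrowly (adjusted p = 0.052 to 0.054). Against wild-type array 2 alone the difference was -1.03 (limma adjusted p = 0.094).

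Gbp2, a guanylate-binding protein that assembles on the vacuoles of intracellular pathogens, had the most positive log2 fold change of the set. It read 14.09, 13.19 and 13.59 in the knockout and 12.95, 12.09 and 12.86 in wild type. All 3 knockout arrays were above all 3 wild-type arrays, but the arrays of each group spread over almost as much as the groups differed. The difference of 0.99 (SE 0.33), 1.98-fold, did not pass the test (limma adjusted p = 0.066). A second tested Gbp2 probe gave 0.50 (SE 0.47). Gbp3, of the same family, with 1 protein-coding gene between them on chromosome 3, read 12.57, 11.85 and 12.22 against 12.31, 11.36 and 12.40, and its groups overlapped (0.19).

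Isg15, the ubiquitin-like protein that is conjugated to many targets during the response, read 10.91, 10.25 and 10.28 in the knockout and 10.17, 9.36 and 10.01 in wild type. Its groups did not overlap, knockout array 2 and wild-type array 1 being closest, and the difference of 0.63 (SE 0.29) was not called (limma adjusted p = 0.142). Rsad2, which encodes viperin, an enzyme that makes a chain-terminating nucleotide, read 10.93, 10.57 and 10.61 against 10.63, 9.42 and 9.84. Only wild-type array 1 reached the knockout range, and the difference was 0.74 (SE 0.32, limma adjusted p = 0.129). Cmpk2, the mitochondrial nucleotide kinase whose gene is the direct neighbour of Rsad2 on chromosome 12, read lower, at 9.15, 8.65 and 8.88 against 10.26, 9.21 and 9.81. Its groups did not overlap, and the difference was -0.87 (SE 0.30, limma adjusted p = 0.073). The pair thus stood 1.61 apart on the log2 scale, although neither gene was called and their difference was not tested.

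No member of the oligoadenylate synthetase family, whose active members make the second messenger that switches on RNase L, passed the test. Oas3 did not rise above background on the knockout arrays, at 5.44, 4.95 and 5.26, and was detected on all 3 wild-type arrays, at 7.01, 5.61 and 6.26. On these arrays the knockout mean was at least 1.41-fold lower. This bound was taken against the lowest signal among detected probes and does not allow for the spread of the arrays. The fitted difference was not called (limma adjusted p = 0.071). Oas2, its direct neighbour on chromosome 5, read 9.98, 9.57 and 10.02 against 10.65, 8.80 and 9.27. Wild-type arrays 1 and 2 lay on either side of all knockout arrays, and the difference was 0.29 (limma adjusted p = 0.662). Oas1a was not above background on any array, with detection p-values from 0.0952 to 0.487.

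Oasl1 and Oasl2, the neighbouring synthetase-like genes with ubiquitin-like repeats, also differed in sign. Oasl1, known in mouse to restrain translation of Irf7, read 9.19, 8.73 and 8.70 against 8.83, 7.75 and 8.27 (0.59, limma adjusted p = 0.181). Oasl2 read 10.69, 10.56 and 10.65 against 11.45, 10.91 and 11.11, without overlap (-0.53, SE 0.18, limma adjusted p = 0.073). These signs rest on the probe chosen, since a second tested probe of each gene gave the opposite sign, -0.46 for Oasl1 and 0.65 for Oasl2.

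By their brightest probes, other effectors sat near 0. Ifit3, an RNA-binding tetratricopeptide protein, read 12.25, 11.62 and 11.72 against 12.29, 11.66 and 11.77, a difference of -0.04 (SE 0.26), and Ifit2 next to it on chromosome 19 read 10.21, 9.69 and 9.59 against 10.38, 9.59 and 9.97 (-0.15, SE 0.27). Both pairs of groups overlapped almost fully. The other 2 probes of Ifit3 gave -0.65 and -0.82 (limma adjusted p = 0.139 and 0.074). Of the dynamin-like antiviral GTPases, Mx1 read 7.66, 6.54 and 7.19 against 7.96, 7.28 and 7.05 (-0.30) and Mx2 read 8.75, 8.32 and 8.61 against 9.15, 7.79 and 8.13 (0.20). Rtp4, a receptor-transporter protein, stood at 7.62, 6.97 and 6.93 against 7.21, 6.57 and 6.88 (0.28). None of these 5 was called, with limma adjusted p from 0.432 to 0.910.

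Isg20 and Ifi27 stood apart from the other effectors in how the arrays ranked. Isg20, an RNA exonuclease, read 9.86, 9.81 and 10.82 against 8.57, 10.54 and 9.80, so that wild-type array 2 was its highest wild-type array and wild-type array 1 its lowest (0.53, SE 0.54, limma adjusted p = 0.471). Ifi27, a small hydrophobic protein of mitochondria, read 14.00, 14.36 and 14.14 against 13.60, 14.00 and 13.38. Wild-type array 2 reached the lowest knockout array, and the difference was 0.51 (SE 0.21, limma adjusted p = 0.113). Without wild-type array 2 it was 0.68 and was called (limma adjusted p = 0.029), while its second probe gave 0.13 with all arrays (limma adjusted p = 0.678). Ifit1 was not above background on any array, with detection p-values from 0.368 to 0.842.

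**Figure D1:**
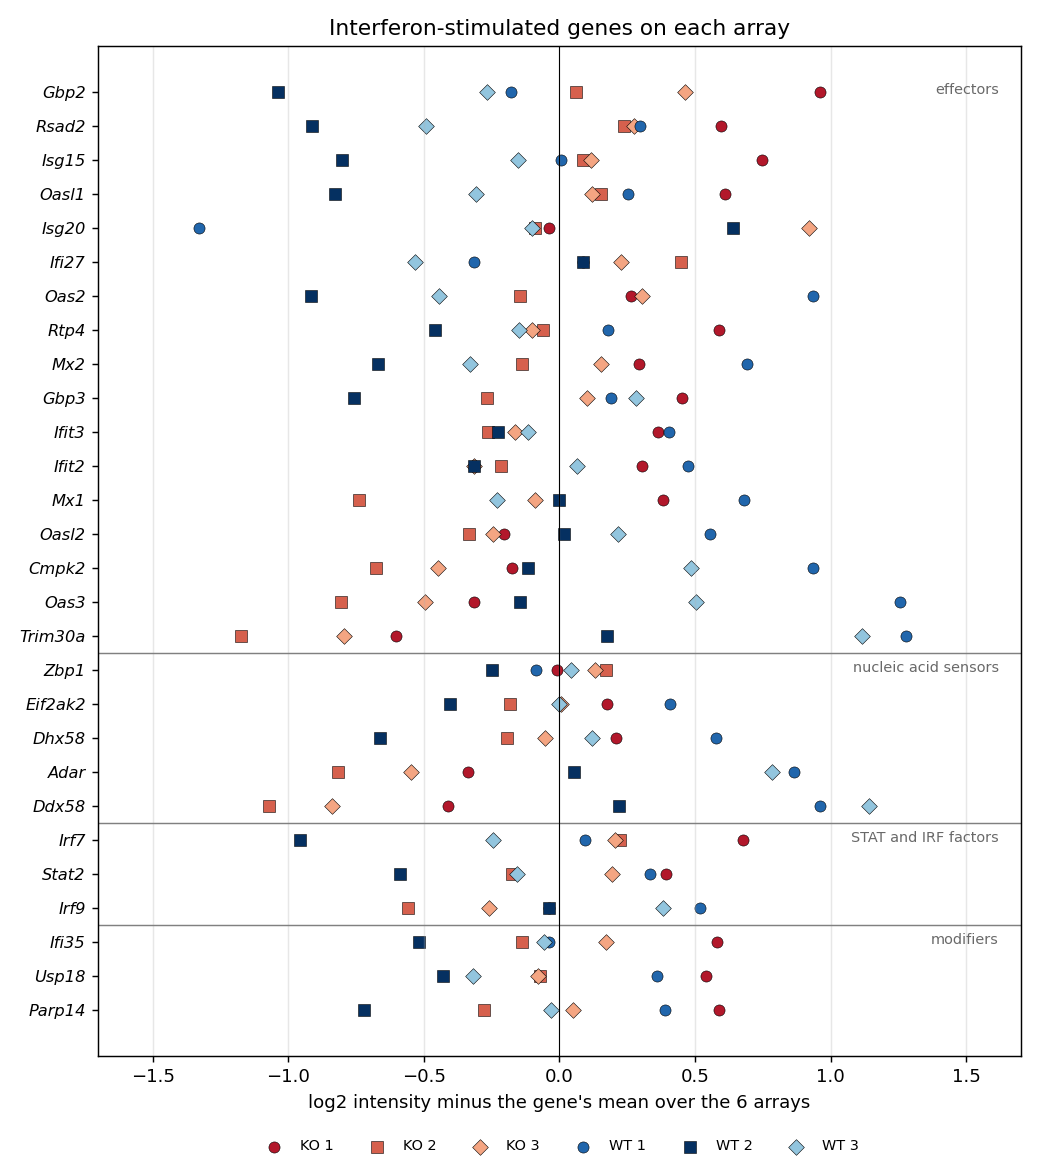
Each row is 1 of the 28 tested genes, and each symbol is 1 array (KO, knockout, in red tones; WT, wild type, in blue tones), at its normalized log2 intensity minus the mean of that gene over the 6 arrays. Horizontal lines separate the roles. The darkest blue square, wild-type array 2, lies to the left of both other wild-type arrays in 25 of 28 genes, while the order of red against blue changes from gene to gene.

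Among the nucleic acid sensors and double-stranded RNA binding enzymes, 2 of 5 were lower in the knockout, Ddx58 and Adar, and none was higher. Over all genes 17.3% were called lower and 10.2% higher. This role is called the sensors below, although Adar is an RNA-editing enzyme. Ddx58 encodes RIG-I, which detects viral double-stranded RNA ends in the cytosol. Its intensities were 370.3, 230.3 and 293.1 in the knockout and 983.9, 628.0 and 1122 in wild type. On the log2 scale these were 8.24, 7.58 and 7.81 against 9.61, 8.87 and 9.79, with every knockout array below every wild-type array. The means of 7.88 ± 0.34 and 9.42 ± 0.49 (SD, n = 3 each) differed by -1.54 (SE 0.30), 2.92-fold, with a limma adjusted p of 0.014. The call held without knockout array 1 and without wild-type array 2, and was lost without any 1 of the other 4 arrays (adjusted p = 0.0504 to 0.058).

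Adar, the deaminase that turns adenosine into inosine in double-stranded RNA and so keeps the cell's own RNA from the sensors, was the other. Its intensities were 590.6, 376.9 and 509.2 in the knockout and 1447, 862.5 and 1408 in wild type, or 9.04, 8.56 and 8.83 against 10.24, 9.43 and 10.16 on the log2 scale. The groups did not overlap, and their means of 8.81 ± 0.24 and 9.94 ± 0.45 (SD, n = 3 each) differed by -1.13 (SE 0.27), 2.19-fold, with a limma adjusted p of 0.025. The call held only when wild-type array 2 was the array left out (adjusted p = 0.0033), and otherwise the adjusted p lay between 0.0502 and 0.084. The other 2 tested Adar probes gave -0.53 and -0.45 and were not called.

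By their brightest probes, the remaining tested sensors did not separate the groups. Eif2ak2 encodes PKR, the kinase that stops translation when it binds double-stranded RNA. It read 11.39, 11.03 and 11.22 against 11.62, 10.81 and 11.21, a difference of 0.00 (SE 0.24). Dhx58, a relative of RIG-I that modulates it, read 10.38, 9.98 and 10.12 against 10.75, 9.51 and 10.29 (-0.02), and Zbp1, a sensor of left-handed nucleic acid that can start necroptosis, read 8.32, 8.50 and 8.46 against 8.24, 8.08 and 8.37 (0.20, limma adjusted p = 0.344). Ifih1, the other RNA sensor of the RIG-I family, was not above background on any array (detection p-values 0.322 to 0.947). Ifi204, a DNA-binding protein, and a second Zbp1 probe were detected only on wild-type arrays 1 and 3. Folds for them could not be bounded above 1. That Zbp1 probe read 5.08, 5.04 and 4.97 against 6.04, 5.12 and 5.88, without overlap.

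None of the STAT and IRF factors passed the test. Irf7, the factor that amplifies interferon production, read 11.52, 11.07 and 11.05 in the knockout and 10.94, 9.89 and 10.60 in wild type. All knockout arrays were above all wild-type arrays, and the difference of 0.74 (SE 0.30) was not called (limma adjusted p = 0.112). Irf9, the DNA-binding partner of Stat2, read 10.89, 10.37 and 10.67 against 11.45, 10.89 and 11.31. Here knockout array 1 only just reached the lowest wild-type array, and the difference was -0.57 (SE 0.22, limma adjusted p = 0.097). Stat2 read 9.87, 9.30 and 9.67 against 9.81, 8.89 and 9.32 (0.28, limma adjusted p = 0.474), with overlapping groups.

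The modifiers stayed within the spread of their arrays. Usp18, the protease that removes Isg15 from its targets and blocks the interferon receptor, read 12.39, 11.78 and 11.77 against 12.21, 11.42 and 11.53 (0.26, limma adjusted p = 0.502). Parp14, an ADP-ribosyltransferase, read 13.04, 12.17 and 12.50 against 12.84, 11.73 and 12.42 (0.24, limma adjusted p = 0.623). Ifi35, which pairs with Nmi, read 9.76, 9.04 and 9.35 against 9.14, 8.66 and 9.12 (0.42, SE 0.24, limma adjusted p = 0.226). In all 3 genes knockout array 1 was the highest of its group and wild-type array 2 the lowest, and the groups overlapped. Parp9 was detected only on wild-type array 1, and Xaf1 on no array (detection p-values 0.150 to 0.495).

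Between the genotypes 17 of the 28 genes had a positive and 11 a negative log2 fold change, beside 5157 and 4816 of all genes. In 9 of the 28 (32.1%) the arrays of the groups did not overlap. Isg15, Gbp2 and Irf7 lay above wild type, and Cmpk2, Oas3, Oasl2, Trim30a, Ddx58 and Adar below it. Oas3 was detected on wild-type arrays only and was tested through that group. Over all genes tested, 47.4% showed no overlap, 21.3% above and 26.0% below. The median log2 fold change was 0.20 for the 17 effectors, -0.02 for the 5 sensors, 0.28 for the 3 STAT and IRF factors and 0.26 for the 3 modifiers. Averaged over its genes, each role gave 1 level per array. The effectors averaged 10.18, 9.70 and 9.93 in the knockout and 10.30, 9.56 and 9.90 in wild type, a difference of 0.02. The sensors averaged 9.48, 9.13 and 9.29 against 10.09, 9.34 and 9.96, so 2 wild-type arrays stood above the knockout range and wild-type array 2 within it. The STAT and IRF factors averaged 10.76, 10.25 and 10.47 against 10.73, 9.89 and 10.41, and the modifiers had group means of 11.31 ± 0.38 and 11.01 ± 0.40 (SD, n = 3 each), with overlapping groups in both.

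Within each genotype, most of the genes ranked the arrays in 1 order. Knockout array 1 was the highest knockout array in 24 of 28 genes (85.7%, against 42.2% of all genes tested), the exceptions being Isg20, Oas2, Ifi27 and Zbp1. Wild-type array 2 was the lowest wild-type array in 25 of 28 (89.3%, against 52.4%), with Mx1, Isg20 and Ifi27 as exceptions. Both held in 23 genes (82.1%, against 33.0%). Knockout array 1 stood above the mean of the other 2 knockout arrays by a median of 0.39, from -0.46 for Isg20 to 0.80 for Mx1, where the median over all genes was 0.03. Wild-type array 2 differed from the mean of the other 2 wild-type arrays by a median of -0.75, from -1.16 for Oas2 to 1.35 for Isg20, beside -0.16 over all genes. The genes share the RNA and the labelling of each array, so they are not independent observations of it.

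This order ran opposite to the gland signal. The mean log2 intensity of the 15 gland markers was 11.67, 14.34 and 13.10 on knockout arrays 1 to 3, lowest on the array where the interferon-stimulated genes were highest. In wild type it was 5.68, 11.80 and 5.58, highest on array 2, where those genes were lowest. Its part in the results was not tested beyond the fits that follow.

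**Figure D2:**
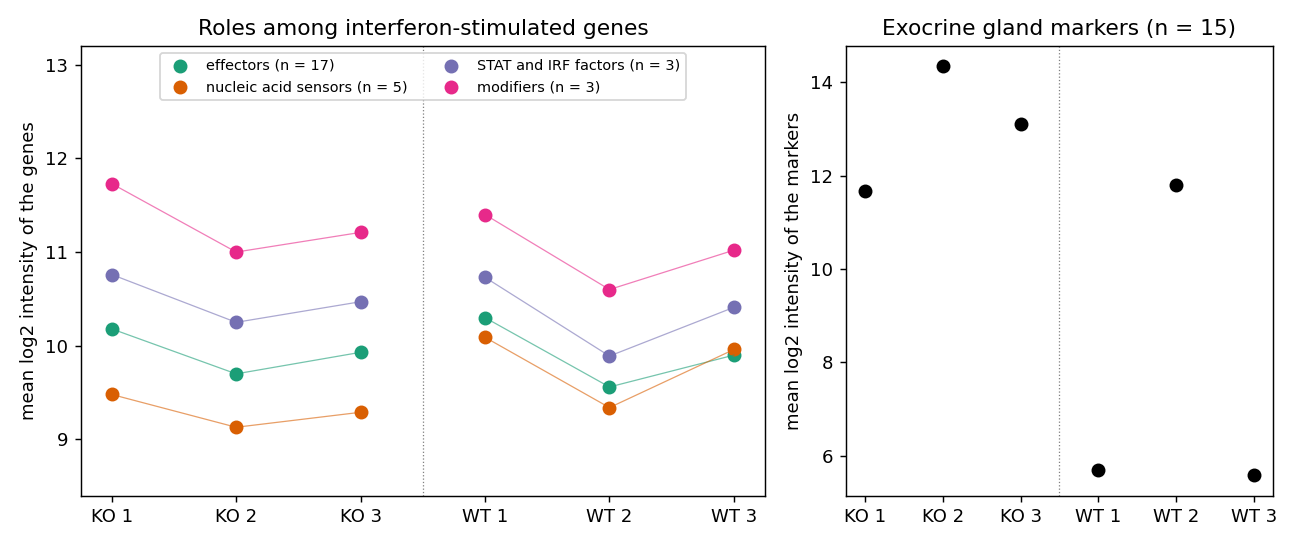
The left panel gives, for each array on the horizontal axis (KO, knockout; WT, wild type), the mean normalized log2 intensity over the tested genes of each role, and the right panel the mean over 15 exocrine gland markers on its own log2 scale. Lines join arrays of 1 group only to guide the eye. All 4 roles are highest on array 1 and lowest on array 2 in both groups, and the gland markers are bright on every knockout array and on wild-type array 2.

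Wild-type array 2 decided much of the comparison. Without it, 7 genes were lower (Cmpk2, Oas3, Oasl2, Trim30a, Ddx58, Adar and Irf9) and 1, Ifi27, was higher, against 23.0% and 20.4% of all genes, and the median log2 fold change was -0.09. Against that array alone, the only wild-type array with a gland signal like that of the knockout, 0 genes were called by limma (6.47% of all genes), although 8 were higher and 2 lower at an unadjusted p under 0.05 (15.1% and 15.6% of all genes), and the median was 0.48. In that comparison the lone wild-type array is assumed to vary like the knockout arrays. With the gland mean as a covariate in the fit, 7 genes were higher, Isg15 by 1.35, Rsad2 by 1.45, Oasl1 by 1.31, Gbp2 by 1.83, Gbp3 by 1.12, Irf7 by 1.52 and Parp14 by 1.13, and 1, Trim30a, was lower by a log2 fold change of -0.80 (limma adjusted p = 0.047). The gland mean was high on every knockout array and, in wild type, only on array 2. Its slope in this fit therefore rested largely on wild-type array 2 and was taken to be the same in both groups. Over all genes that fit called 10.2% higher and 9.08% lower. Ddx58 and Adar then gave -0.75 and -0.43 and were not called (limma adjusted p = 0.067 and 0.184). Trim30a, Ddx58 and Adar had a negative log2 fold change in all 3 of these fits, as did Cmpk2, Oasl2 and Irf9. Oas3, also counted among the 7 above, was negative in all 3 as well. It was detected on wild-type arrays only and was tested through that group.

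**Figure D3:**
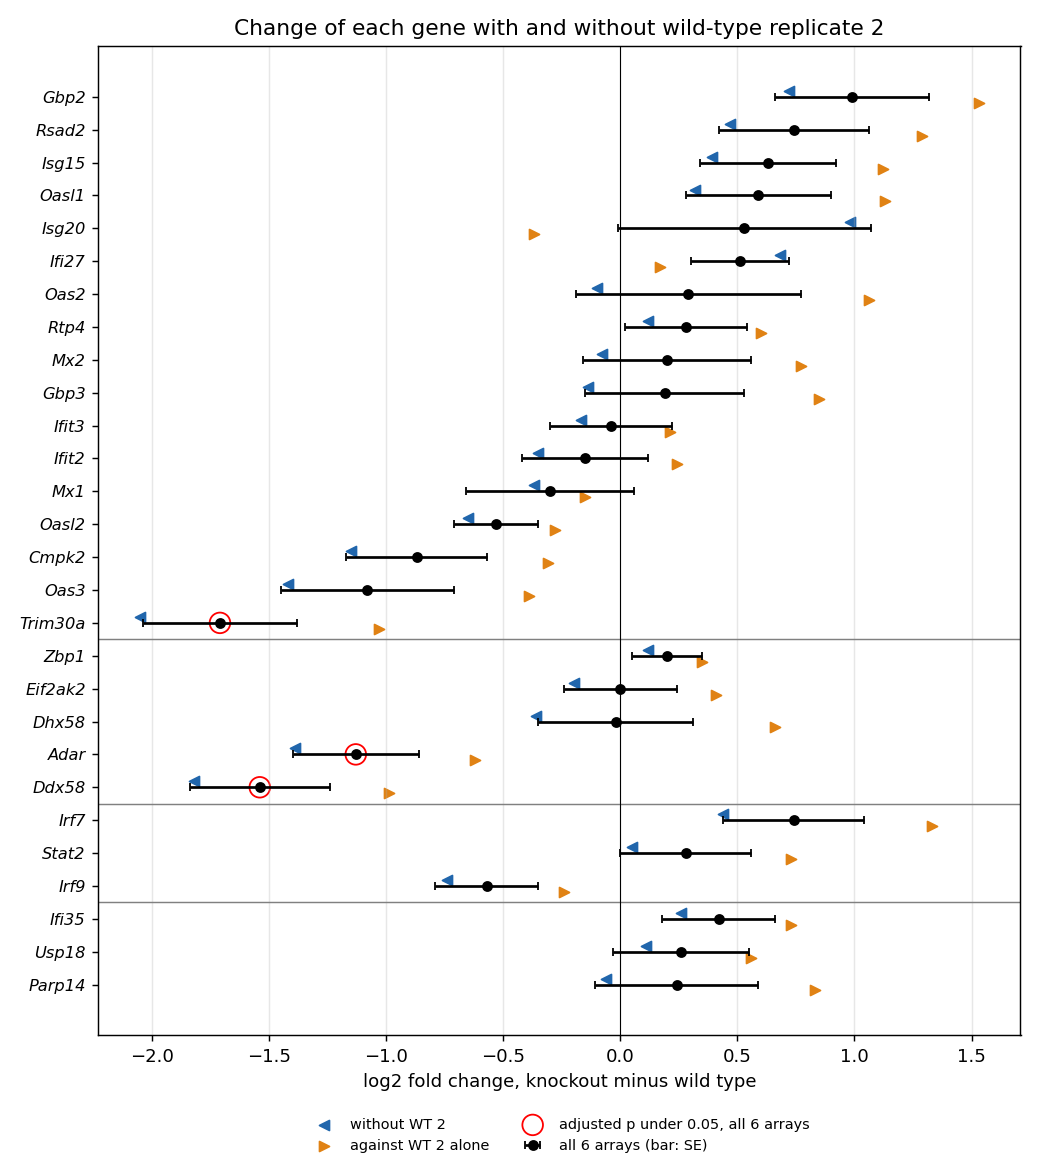
For each tested gene, the black point is the log2 fold change of knockout minus wild type over all 6 arrays with its standard error, the blue triangle the value without wild-type array 2, and the orange triangle the value against wild-type array 2 alone. Red circles mark Trim30a, Ddx58 and Adar, the genes with an adjusted p under 0.05 over all arrays. Genes such as Isg20, Ifit2 and Dhx58 change sign with the choice of wild-type arrays, and the 3 circled genes stay left of 0 in all fits shown.

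Several genes could be read from more than 1 probe, each at its own place on the gene's transcripts. Of 10 genes with at least 2 tested probes, 4 had probes of both signs (40.0%, against 27.0% of the 2589 such genes on the array). These were Oasl1, Oasl2, Gbp3 (-0.31 and 0.19) and Usp18 (-0.61, -0.20 and 0.26). The probes of a gene spanned a median of 0.73 on the log2 scale, against 0.44 over the array. Ifit2 had the most unequal calls. Its brighter probe gave -0.15, while its dimmer probe read 8.34, 8.03 and 8.18 in the knockout and 9.61, 8.76 and 9.41 in wild type, without overlap, for a difference of -1.08 (SE 0.25, limma adjusted p = 0.024). With the dimmest tested probe of each gene in place of the brightest, 3 genes were lower, Ifit2, Trim30a and Ddx58, and 0 higher, against 18.4% and 10.3% of all genes. Which transcript isoforms the probes cover was not analysed here.

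**Figure D4:**
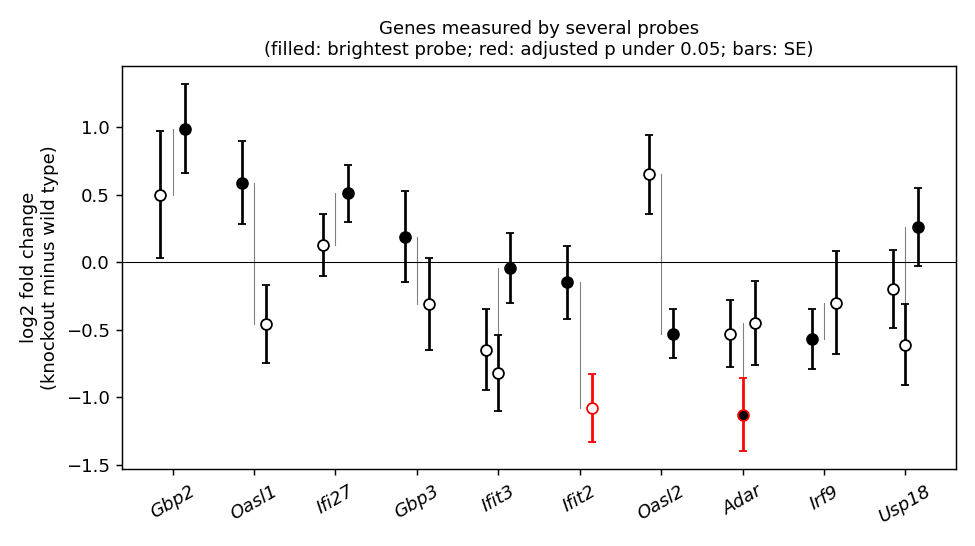
Log2 fold change of every tested probe, with its standard error, for the 10 genes with at least 2 tested probes. Filled points are the brightest probe, which represents the gene in the text, and red marks an adjusted p under 0.05. Probes of Oasl1, Oasl2, Gbp3 and Usp18 fall on both sides of 0, and of the probes shown only the dimmer Ifit2 probe and the brightest Adar probe pass the test.

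Upstream of these genes, 21 of 30 listed receptors, interferons and signalling proteins were tested, and 1 was higher and 3 lower (19.0% called, against 27.5% of all genes). With the gland covariate 4 were higher and 1 lower, against 10.2% and 9.08% of all genes. Jak1, the kinase shared by the type I and type II receptors, read 7.19, 7.63 and 7.05 in the knockout and 8.75, 8.57 and 8.96 in wild type. Its groups were well separated, and the difference of -1.47 (SE 0.21, limma adjusted p = 0.0061) stayed called with any 1 array left out. Il10rb, a receptor chain shared by interferon lambda and interleukin 10, fell by 0.98 (SE 0.19, limma adjusted p = 0.014), and Irf2, a factor that competes for interferon response elements, by 0.95 (SE 0.20, limma adjusted p = 0.017). Neither Il10rb nor Irf2 was called with the gland covariate, at -0.66 and -0.57 (limma adjusted p = 0.102 and 0.133), and with 1 array left out they were called in 4 and 2 of 6 fits. Jak1 was not called against wild-type array 2 alone, at -1.28 (limma adjusted p = 0.068).

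Ifng, the only interferon gene of the list that was tested, was higher in the knockout. It read 8.64, 7.13 and 7.30 against 6.19, 5.30 and 6.26, with all knockout arrays above all wild-type arrays, and the difference was 1.77 (SE 0.47, limma adjusted p = 0.036). Its second probe was called too. Neither probe rose above background on wild-type array 2 (detection p-values 0.1 and 0.302), so the wild-type mean includes a background value. The call depended on the processing: without background correction the difference was 0.97 (limma adjusted p = 0.057). Without the detection filter it was 1.77 and was not called (limma adjusted p = 0.06). With 1 array left out the call held only without wild-type array 2. The other interferon genes listed, Ifnb1, Ifna4, Ifna2, Ifnk and Ifne, were not detected often enough to be tested. The receptor chain Ifnar1 was not above background on any array, and Ifnar2 differed by 0.00 (SE 0.36), but with the gland covariate it gave 1.02 and was called (limma adjusted p = 0.02). A second tested Ifnar2 probe gave 0.12. An untested Ifnar2 probe, detected only on wild-type arrays 1 and 3, read 4.95, 5.04 and 4.78 against 6.19, 5.29 and 5.95, without overlap. Irf3 gave 0.11 (SE 0.16) and the adaptor Mavs 0.39 (SE 0.15, limma adjusted p = 0.087). Tmem173 was not analysed here.

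Of 53 further genes known to be induced by interferons, 39 were tested, and 2 were higher and 5 lower (17.9% called, against 27.5% of all genes). With the gland covariate 10 were higher and 2 lower, against 10.2% and 9.08% of all genes. Bst2, which encodes tetherin, a membrane protein that holds budding virus at the cell, read 12.33, 11.41 and 11.90 against 10.35, 9.28 and 10.77, a difference of 1.75 (SE 0.43, limma adjusted p = 0.029). Cxcl9, a chemokine induced by interferon gamma, read 13.61, 12.73 and 13.68 against 11.81, 10.92 and 12.31, a difference of 1.66 (SE 0.42, limma adjusted p = 0.032). Both had all knockout arrays above all wild-type arrays. Both were also called without wild-type array 2, at 1.32 and 1.28, and against that array alone, at 2.61 and 2.42. With 1 array left out, Bst2 was called in 2 of 6 fits and Cxcl9 in 3.

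Pml, the scaffold of nuclear bodies, read 11.01, 10.86 and 10.80 against 12.52, 12.06 and 12.47. The groups lay far apart, and its fall of 1.46 (SE 0.18, limma adjusted p = 0.0043) was called in all 6 fits with 1 array left out and with the gland covariate (-1.09, limma adjusted p = 0.019). Against wild-type array 2 alone, with 1 array in that group, Pml gave -1.17. Sp100, another nuclear body protein, fell by 0.94 (SE 0.23, limma adjusted p = 0.028), and Ifi47, a GTPase of the immunity-related family, by 1.65 (SE 0.35, limma adjusted p = 0.018). Sp100 and Ifi47 were not called with the gland covariate, at -0.49 and -0.83 (limma adjusted p = 0.248 and 0.148), and each was called in 2 of 6 fits with 1 array left out. Tor3a, an interferon-induced relative of torsin, gave -1.51 (SE 0.19, limma adjusted p = 0.0043), but its other 2 probes gave -0.47 and 0.52 and were not called. The fifth lower gene, Trim25, a ubiquitin ligase that acts on RIG-I, gave -0.84 (SE 0.22, limma adjusted p = 0.034). Where detection on all arrays was required, 36 of these further genes were tested, and Trim25 was not among those called. Its call was lost with an offset of 50, without background correction and in the authors' values. It was also lost with the replicate block, against wild-type array 2 alone and with the gland mean in the fit. With 1 array left out it held only without wild-type array 2.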

How the data were processed

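Normalized expression was compared between 3 arrays of Rag2/pfp knockout and 3 of wild-type lymph nodes. Linear signal intensities of every probe and array stand in a deposited table of non-normalized data, and the submitters' processing notes name GenomeStudio 2011.1. Beside each intensity the authors deposited a detection p-value. Another deposited table has the authors' log2 values. Set against the intensities, these differed by at most 5e-07 from quantile-normalized log2 intensities without background correction, and every column has a median of 7.38. They served as an alternative.

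Intensities of 25697 probes were background-corrected by normexp from the detection p-values with an offset of 16, which shrinks the change of dim probes, then quantile-normalized and put on the log2 scale (neqc in limma 3.58.1, R 4.3.3). Between 51.3% and 56.3% of probes were detected per array at a detection p under 0.05. Probes detected on at least 3 of 6 arrays were tested (14378 tested, 11319 not) with lmFit and eBayes, two-sided, on samples grouped by genotype, with Benjamini-Hochberg adjustment over all of them. The number of arrays limits the precision. A gene was represented by its tested probe with the highest mean. A lower bound on a fold sets the bright group's mean against the dim group's, where each dim array counts at no less than its dimmest detected probe. Levels of different probes were not compared.

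The platform annotation gives 1 symbol to 23978 probes, several to 0 and none to 1719. RefSeq identifiers matched 23962 of them and changed 0 symbols. The sources used here name no genome build for the files, and promoter sequences and their coordinates are those of RefSeq's GRCm38.p6 table, searched with Python 3.11.15 and pandas 2.3.3. The 35 genes, the lists of pathway genes and the markers were chosen with earlier results of these data known, so no test was made over any list. The text names all 35 genes, up to 4 called genes per direction from each of the other 2 lists, and Ifnar1, Ifnar2, Irf3, Mavs and Tmem173. Another gene of that rule is not reported here. Trim25 completes a small count and was chosen after its values were seen, as were the untested interferon genes. Alternatives were another offset, no background correction, the authors' values, median scaling, no or a stricter detection filter, the replicate number as a block, array weights, the gland covariate, wild-type array 2 alone, each array left out and the dimmest probe. Between arrays of a group the log2 values differed with an SD of 0.415 to 1.121, so none was a duplicate.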

Additional observations from a re-analysis of the deposited data

How the results depend on the processing

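Replicates 1 to 3 are the arrays of those numbers. An offset of 50, no background correction, the authors' values, no filter and detection on all arrays left the calls and signs of the interferon-stimulated genes tested under them as they were. The same holds for median scaling except Ifit3 (0.01). With the replicate number as a block, 1 gene was higher (Gbp2) and 6 were lower, where 31.7% of all genes were called. The labels do not say that a number marks a shared source. Deviations of same-numbered arrays correlated at 0.489, 0.318 and -0.308, and not every array correlated best with its own number. Array weights gave 3 higher and 7 lower (55.0% of all genes called), the gland covariate 7 and 1, and wild-type replicate 2 alone 0 and 0. With 1 array left out, 0 to 1 gene was higher and 0 to 7 were lower, the extreme of 7 without wild-type replicate 2. Over all genes those fits called 11.6% to 43.4% in either direction, and the gland covariate fit called 19.3%. Genes called in the receptor list numbered 4 (1 higher, 3 lower), 5 with the gland covariate (4 higher, 1 lower), 11 with array weights, 0 against wild-type replicate 2 alone, and 1 to 9 with 1 array left out. In the other interferon-induced list they numbered 7 (2 higher, 5 lower), 12 with the gland covariate (10 higher, 2 lower), 18 with array weights, 2 against wild-type replicate 2 alone, and 2 to 12 with 1 array left out.

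With the gland covariate the median log2 fold change of the 28 interferon-stimulated genes was 0.65, beside 0.01 over all genes tested. It was 0.33 for the sensors and 0.93 for the STAT and IRF factors. Over the array, the share of higher probes among those called went from 35.3% to 50.1%. Against wild-type replicate 2 alone the sensors' median was 0.35 and that of the STAT and IRF factors 0.73. With 1 array left out the median of the 28 interferon-stimulated genes ran from -0.09 to 0.34. Medians of the effectors ran from -0.10 to 0.37, of the sensors from -0.36 to 0.20, and of the STAT and IRF factors from 0.05 to 0.51.

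Signs turned in genes that were not called. With the gland covariate they were 0.42 for Ifit2, 0.40 for Ifit3, 0.14 for Mx1, -0.48 for Isg20 and 0.84 for Dhx58. Against wild-type replicate 2 alone they were 0.24 for Ifit2, 0.21 for Ifit3, -0.37 for Isg20 and 0.66 for Dhx58. Array weights gave -0.11 for Gbp3 and -0.06 for Eif2ak2. The dimmest probe gave -0.46 for Oasl1, 0.65 for Oasl2, -0.31 for Gbp3 and -0.61 for Usp18. With 1 array left out the ranges crossed or reached 0 for Ifit2 (-0.35 to 0.05), Ifit3 (-0.24 to 0.15), Mx1 (-0.57 to 0.00), Mx2 (-0.08 to 0.60), Isg20 (0.00 to 0.98), Oas2 (-0.10 to 0.83), Gbp3 (-0.14 to 0.38), Dhx58 (-0.36 to 0.27), Eif2ak2 (-0.20 to 0.21) and Parp14 (-0.06 to 0.49). The cause of each of these changes was not tested. Genes not detected on enough arrays have no measured direction.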
